A study of Sus scrofa with 50 samples.

Results

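Genes that defend cells against peroxides, lipid peroxidation and ferroptosis were followed through 5 tissues of Korean minipigs. They are 9 of the 14424 protein entries measured. Each gene is the sum of all assembled transcripts whose best protein match carries the same Swiss-Prot entry name, 31 of 57085 transcripts in all, and its level is in TPM, a share of the library already divided by transcript length. The members are FSP1 (gene AIFM2), GPX4, GPX1, GPX3, CATA (catalase), SRXN1, TRXR1 (gene TXNRD1), NQO1 and HMOX1. They were selected on measured values in part, since the lower TPM of SRXN1 and FSP1 in the loin of ET animals was known, so the type difference in loin is given below as a description.

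RNA-seq was made from backfat, loin, tenderloin, brain and lymph tissue of 10 pigs, 5 of the ET type (S0235, S0242, S0276, S0309 and S0326) and 5 of the L type (S0349, S0355, S0377, S0384 and S0385). Each animal gave 1 library per tissue, 50 in all. The sources used here give no age, sex, treatment or meaning of the names ET and L, and they report no allele or agent that the types share. Values below are listed in the order of the animal numbers.

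In all, 5 libraries went against their tissue labels and were left out of the results unless stated. The library labelled backfat of S0355 held 23749 TPM of the muscle creatine kinase KCRM, against 0.0954 to 97.9 TPM in the other backfat libraries, and its loin library held 1139 TPM of adiponectin (ADIPO), against 0 to 4.203 TPM in other loins. The lymph library of S0235 held 3.13 TPM of the T cell chain CD3E, against 406 to 750 TPM in other lymph libraries, and 2156 TPM of the kidney protein uromodulin. The 8 kept brain libraries carried pituitary hormone transcripts (3 markers summed to 47899 to 82994 TPM in ET and 20971 to 52477 TPM in L) and only 50.5 to 128 TPM of myelin and astrocyte markers in ET and 66.9 to 103 TPM in L. The 2 left-out brain libraries, S0235 and S0355, held 30538 and 37999 TPM of myelin basic protein. The label "brain" is therefore kept below only as a name. In the other tissues the kept libraries matched their labels. The 6 adipocyte markers are given with backfat below, the 6 skeletal muscle markers summed to at least 46046 TPM in every kept loin and 45482 TPM in every tenderloin, and the 7 lymphoid markers to at least 3714 TPM in every kept lymph library. In each library TPM sums to 1000000 whatever the sequencing depth, so the depth behind a value is unknown, and 10178 to 13183 entries reached 1 TPM.

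Ferroptosis is a form of cell death in which iron drives the peroxidation of membrane phospholipids. GPX4 is a selenoenzyme that reduces phospholipid hydroperoxides with glutathione, and FSP1 works beside it by reducing coenzyme Q at membranes, which then traps lipid radicals. GPX1, GPX3 and catalase remove hydrogen peroxide in the cytosol, the extracellular fluid and the peroxisome. Sulfiredoxin (SRXN1) repairs over-oxidised peroxiredoxins, thioredoxin reductase 1 (TRXR1, a selenoenzyme) recycles thioredoxin, NQO1 reduces quinones, and HMOX1 breaks down haem, and these are textbook targets of the transcription factor NRF2.

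In the RefSeq annotation of build Sscrofa11.1, the build named in the submitters' processing notes, AIFM2 lies on chromosome 14 from 73054433 to 73074605. GPX4 lies on chromosome 2 from 77321568 to 77323931 and catalase (CAT) on the same chromosome from 26493664 to 26533881. SRXN1 lies on chromosome 17 from 34582377 to 34589308, GPX1 on chromosome 13 from 31916269 to 31917337, and GPX3 on chromosome 16 from 71980467 to 71989011. TXNRD1 lies on chromosome 5 from 80170334 to 80213889 and NQO1 on chromosome 6 from 17292962 to 17302593. HMOX1 has no chromosome in that table. The deposited transcripts were named by protein match and were not placed on the genome here.

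**Figure D1:**
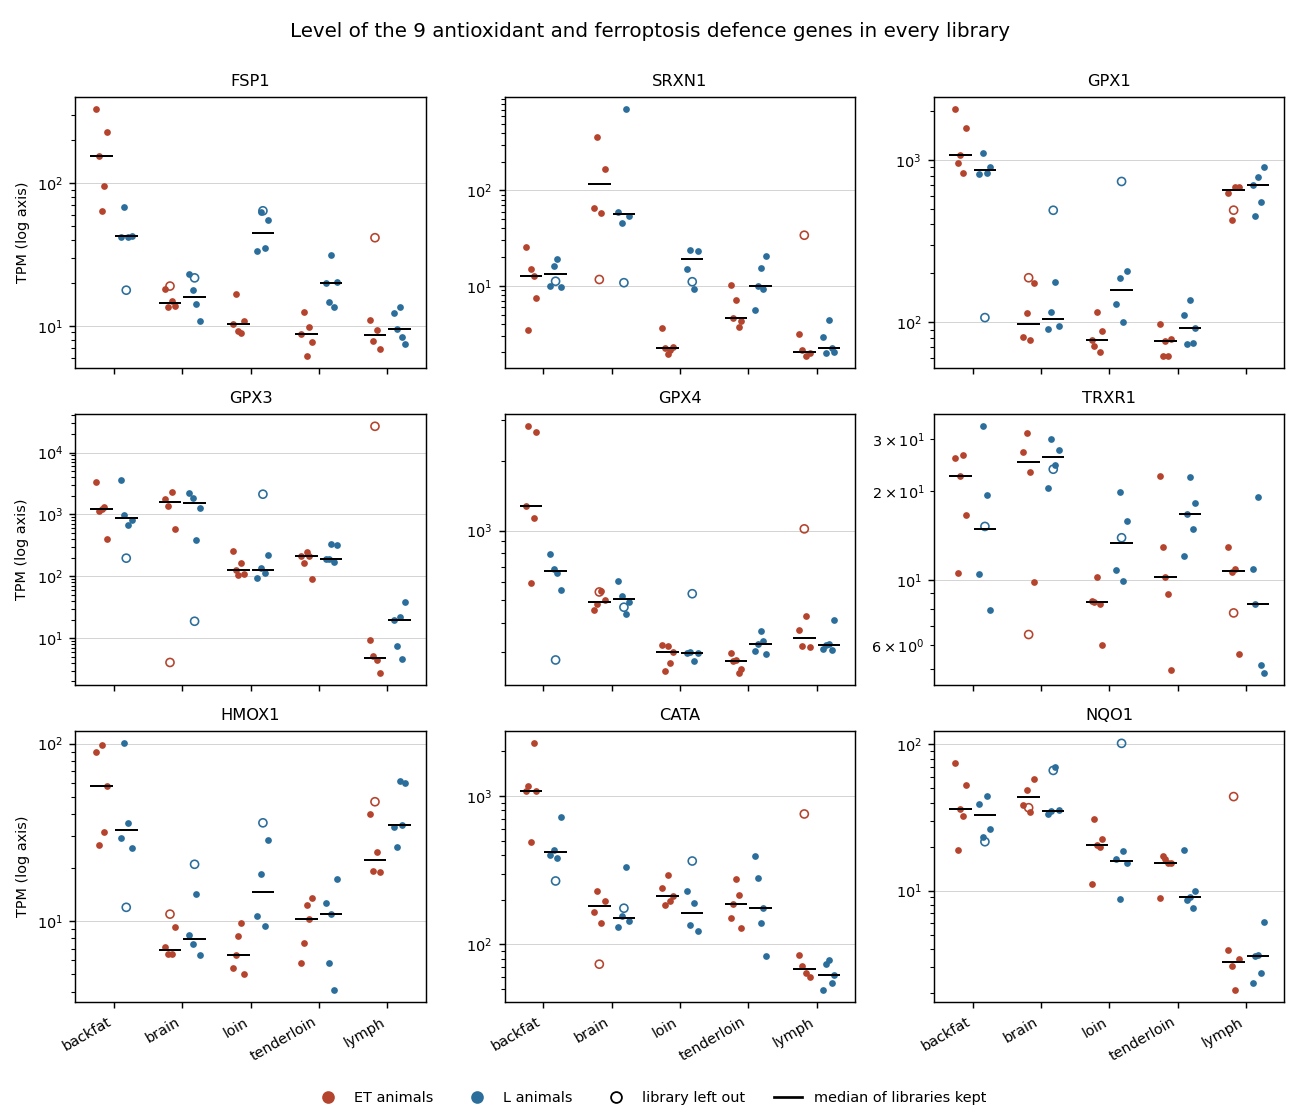
TPM of each gene in every library on a log axis, ET animals left of L animals in each tissue, with open circles for the libraries left out and a bar for the median of those kept. FSP1 in backfat spans 63.5 to 328 TPM in ET and 42.1 to 68.4 TPM in L, while in both muscles every ET library lies below every kept L library.

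The defence enzymes were spread unevenly over the tissues. FSP1, GPX4, GPX1 and CATA were higher in backfat than in each other tissue (limma over all entries, types averaged), as were 7.5% of all entries tested, and SRXN1 was higher in brain than in each other tissue, as were 36.4% of all entries. Lymph had the lowest estimate for FSP1, SRXN1, GPX3, TRXR1, CATA and NQO1. Of all entries 28.1% were called higher in backfat than in lymph, 53.8% in brain, 21.2% in loin and 20% in tenderloin. TRXR1 in lymph was not called below loin (0.20, limma, adjusted p = 0.484) or tenderloin (0.50, 0.0612). For FSP1 the lead of tenderloin over lymph was 0.45 (adjusted p = 0.0448), and -0.11 with 1 transcript per entry. Because TPM is a share of each library and bulk tissue mixes cell types, fewer cells of a type and less RNA per cell cannot be told apart in any of these values. The tissue order rests partly on the scale: with a median-ratio scaling, which moved the median entry's brain minus tenderloin difference from 1.33 to 0.06 on the log2 scale, brain fell below tenderloin for FSP1, GPX1, GPX4 and TRXR1.

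FSP1 was highest in backfat, and its type difference ran in opposite directions in backfat and in the muscles. In backfat FSP1 stood at 328, 155, 63.5, 95.3 and 227 TPM in ET animals, against 42.1, 68.4, 42.2 and 42.5 TPM in L animals. In 4 of 5 ET animals the level was above every L library, and S0276 lay inside the L range. The means were 174 ± 106 TPM in ET (SD, n = 5) and 48.8 ± 13.1 TPM in L (SD, n = 4), a log2 fold change of 1.61 (SE 0.43, limma on log2(TPM + 1), adjusted p = 0.0403). FSP1 was the only one of the 9 genes called in backfat, where 8.57% of 12119 entries were called, and 7.53% were called higher. With the left-out S0355 library, at 17.8 TPM, the fold change was 1.89 (adjusted p = 0.0435). The call did not hold in 10 of 17 alternatives, with an adjusted p of up to 0.117 under median-ratio scaling; among them were the fits without S0235, S0242, S0326, S0349, S0377, S0384 or S0385, each of which left it above 0.05, while the fold change stayed between 1.31 and 1.91.

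In tenderloin, the psoas muscle, FSP1 went the other way. It stood at 8.83, 12.4, 6.18, 9.86 and 7.73 TPM in ET animals, against 19.8, 14.8, 31.6, 13.6 and 20.3 TPM in L animals. The groups did not overlap, which held in the same direction for 1.39% of the 10860 entries tested there. The means were 9.01 ± 2.36 TPM in ET and 20.02 ± 7.11 TPM in L (SD, n = 5 each), and FSP1 fell by 1.04 on the log2 scale (SE 0.23, limma, adjusted p = 0.0479). It was again the only one of the 9 called, against 1.63% of all entries called and 0.23% called lower. This call too lay close to the threshold: 3 of 17 alternatives kept it, every fit without 1 animal other than S0384 lost it, and the fold change ranged from -1.16 to -0.76 with an adjusted p of up to 0.187.

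In loin, the long back muscle, FSP1 showed the same direction as in tenderloin of the same animals. It stood at 10.3, 16.8, 9.28, 8.93 and 10.8 TPM in ET animals, against 33.3, 62.4, 34.9 and 55.1 TPM in L animals, a log2 fold change of -1.94. All 5 ET libraries were below all 4 L libraries, as was the case in the same direction for 21.6% of all entries tested in loin. This contrast was known when the genes were chosen. The left-out S0355 loin library, which carried fat transcripts, held 63.9 TPM.

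In brain and lymph tissue FSP1 showed no such split. It stood at 18, 13.7, 15.1 and 13.9 TPM in ET brain, against 23.1, 17.8, 14.2 and 10.9 TPM in L brain (-0.08 on the log2 scale, SE 0.24, adjusted p = 0.938). In lymph it stood at 10.9, 7.82, 9.40 and 6.87 TPM in ET, against 12.2, 9.52, 13.6, 8.36 and 7.48 TPM in L (-0.19, SE 0.22, adjusted p = 0.896). In both tissues the ET and L ranges overlapped. None of the 9 genes was called in lymph or in brain, and limma called 0% of all entries in either tissue, with 526 of 11990 entries in lymph and 1079 of 13107 in brain at an unadjusted p under 0.05.

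Whether the type difference itself differed between backfat, tenderloin, brain and lymph was tested as an interaction that used no loin library. Loin and tenderloin came from the same animals, however. Deviations of these 2 muscles from their group means had a median r of 0.45 within an animal (9 pairs). Neither the tenderloin call nor the interaction is therefore independent of the choice of FSP1. FSP1 passed this test (limma F test, adjusted p = 0.000426) and did so in 18 of 18 alternatives, with an adjusted p between 8.89e-05 and 0.00843. Of the other 8 genes GPX4 passed, and 12.9% of all 13568 entries did. The component that sets backfat against tenderloin, picked out after its value was seen, was 2.65 on the log2 scale for FSP1 (SE 0.43, adjusted p = 8.58e-05), and 10.6% of all entries passed it. It lay between 2.36 and 2.93 in the alternatives.

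**Figure D2:**
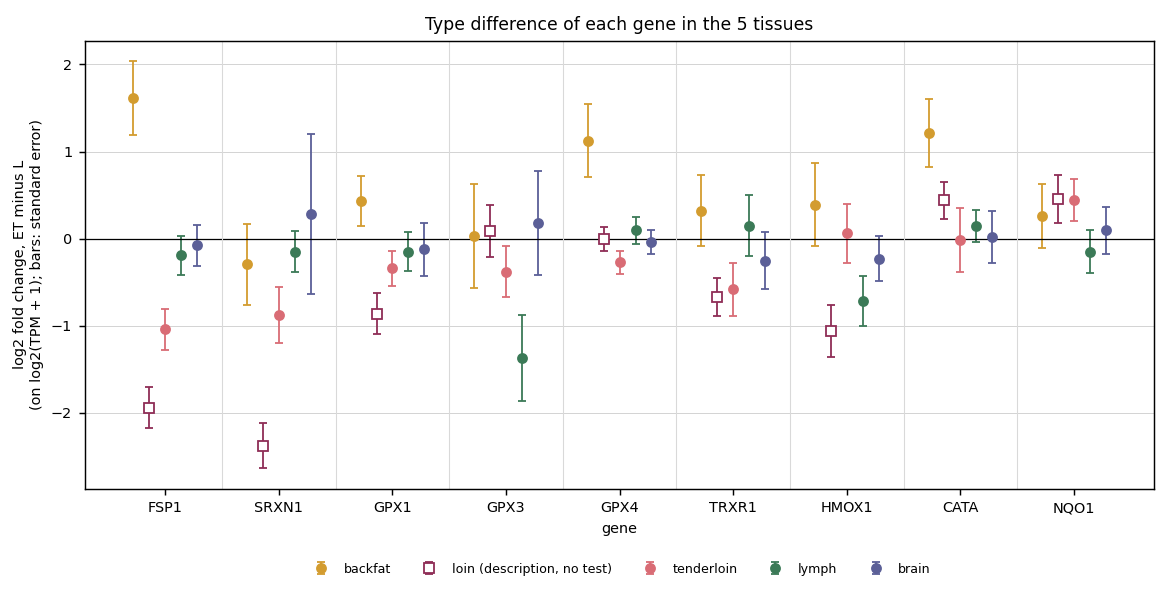
Log2 fold change of ET over L on log2(TPM + 1) for each gene in each tissue, with the limma standard error as bars. FSP1 is at 1.61 in backfat and at -1.04 in tenderloin, and open squares mark loin, which is a description. With median-ratio scaling these FSP1 values were 1.31 and -1.13.

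Some cell type markers also differed between the types in backfat. The 6 adipocyte markers summed to 8457 to 19078 TPM in ET backfat and 493 to 7509 TPM in L backfat, with leptin (LEP) at 2.92 to 220.4 TPM in ET and under 0.1 TPM in all 4 kept L libraries. The 5 fibroblast markers summed to 7925 to 29727 TPM in ET and 1024 to 3827 TPM in L, the 8 macrophage markers to 463 to 1101 TPM in ET and 219.9 to 439 TPM in L, and the 3 red cell markers to 95 to 647 TPM in ET and 2.92 to 67.5 TPM in L. Limma called 5 of 6 adipocyte, 4 of 5 fibroblast, 3 of 7 tested macrophage and 2 of 3 red cell markers, all higher in ET. Of 4 tested lymphoid markers PTPRC (2.67) and CD3E (1.42) were higher and CD79A (-0.999) lower. The slow fibre markers summed to 0.747 to 5.20 TPM in ET and 7.36 to 115 TPM in L, with 1 of 5 tested called lower (MLRV, -3.11). Their part in the backfat results was not tested. In tenderloin the adipocyte sum was 46.1 to 83.8 TPM in ET and 28.1 to 136 TPM in L, and the fibroblast sum 487 to 707 TPM in ET and 185 to 223 TPM in L. The fast fibre sum there was 24805 to 40293 TPM in ET and 10241 to 38236 TPM in L, and the slow fibre sum 44430.5 to 62949 TPM in ET and 40415 to 105259.5 TPM in L, and their part was not tested either. Of the lists given here for tenderloin limma called 4 of 5 fibroblast markers, higher in ET, and none of the tested adipocyte, fast fibre or slow fibre markers.

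Some markers differed between the types in loin too, most of them higher in ET. The 6 skeletal muscle markers summed to 89714 to 123954 TPM in ET and 46046 to 83838 TPM in L, without overlap. Of the 6 tested, ACTS and TNNC2 were called higher in ET. The fibroblast sum in loin was 159 to 919.6 TPM in ET and 122 to 228 TPM in L, with 5 of 5 markers called higher. The red cell sum was 28.8 to 92 TPM in ET and 3.10 to 12.7 TPM in L, and both tested haemoglobin chains, HBA (2.38) and HBB (2.77), were higher. The macrophage sum was 30.4 to 70.6 TPM in ET and 16.9 to 35.1 TPM in L, and C1QA (1.07), C1QB (1.56) and MRC1 (0.72) of 7 tested were higher. The adipocyte sum was 31.4 to 74.5 TPM in ET and 53.9 to 118 TPM in L, and of 3 tested markers LIPS, hormone-sensitive lipase, was lower (-2.02). The fast fibre sum was 53294 to 112768 TPM in ET and 42615 to 78877 TPM in L, with PRVA (parvalbumin, 3.19) and TNNC2 (0.83) higher of 7 tested, and the slow fibre sum 8574 to 43067 TPM in ET and 7829 to 27512 TPM in L, with MYL3 (1.53) higher of 6. The part of these cells in the loin values was not tested.

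Averaged over the types, FSP1 was higher in loin than in tenderloin, by 0.73 on the log2 scale (SE 0.21, limma, adjusted p = 0.00766). The gap was wide in L animals, with means of 46.4 TPM in loin and 20.02 TPM in tenderloin and no overlap. The share of all entries without overlap between the muscles was not counted. In ET animals the means were 11.2 and 9.01 TPM, and the ranges overlapped. Whether the gap differed between the types was not tested. The other 8 genes were not called between the muscles, where 23.2% of entries were. The contrast shares its loin libraries with the choice of genes, and with 1 transcript per entry it was 0.51 (adjusted p = 0.141). Across tissues FSP1 ran from backfat through loin, brain and tenderloin to lymph, and the neighbours brain and tenderloin were not called different (0.23, adjusted p = 0.305).

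GPX4, the other enzyme that acts on membrane lipid peroxides, was also highest in backfat. It stood at 1278, 2819.8, 596, 1129 and 2662 TPM in ET backfat, against 792, 681, 659 and 552 TPM in L backfat. In 4 of 5 ET animals the level was above every L library and S0276 was below 3 of the 4. The means were 1697 ± 988 TPM in ET (SD, n = 5) and 671 ± 98.3 TPM in L (SD, n = 4), and the fold change of 1.12 was not called (SE 0.42, adjusted p = 0.115). Without S0276 it was 1.45 and passed (limma, adjusted p = 0.0221), the only 1 of 17 alternatives that did. In the alternatives the fold change ran from 0.81 to 1.45, with an adjusted p of up to 0.316.

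Outside backfat GPX4 varied little. It ranged from 249 to 323 TPM over the 9 loin libraries, from 243 to 368 TPM over the 10 tenderloin libraries, from 306 to 427 TPM in lymph and from 437 to 607 TPM in brain. In tenderloin it stood at 297, 273, 277, 243 and 252 TPM in ET, against 302, 324, 368, 333 and 293 TPM in L (-0.27, adjusted p = 0.27), with overlapping ranges. Its type difference differed between the 4 tissues (interaction adjusted p = 0.0212), and that of backfat exceeded that of tenderloin by 1.40 (SE 0.34, adjusted p = 0.00729). The interaction held in 12 of 18 alternatives. It did not hold with median-ratio scaling (adjusted p = 0.219) or without S0242 (0.0910), S0326 (0.112), S0377 (0.0993), S0384 (0.0690) or S0385 (0.0802).

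CATA, which splits hydrogen peroxide in peroxisomes, followed the same pattern in backfat. It stood at 1075, 1176, 488, 2268 and 1082 TPM in ET, against 399, 434, 383 and 727 TPM in L. In 4 of 5 ET animals the level was above every L library and S0276 lay inside the L range. The means were 1218 ± 648 TPM in ET (SD, n = 5) and 486 ± 162.5 TPM in L (SD, n = 4), a log2 difference of 1.21 (SE 0.39, adjusted p = 0.0742) that was not called. Without S0276 it passed (limma, adjusted p = 0.0152), the only 1 of 17 alternatives that did. In the alternatives the adjusted p rose to as much as 0.1896.

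Elsewhere CATA showed no type split. It spanned 183 to 295 TPM in ET loin and 122 to 228 TPM in L loin, 129 to 274 TPM in ET tenderloin and 83.6 to 391 TPM in L tenderloin. In brain it spanned 139 to 229.8 TPM in ET and 130.4 to 333 TPM in L. Lymph was its lowest tissue, at 59.7 to 84.5 TPM in ET and 49.2 to 78.7 TPM in L, and brain exceeded lymph by 1.42 on the log2 scale (adjusted p = 1.47e-06).

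GPX1, the cytosolic glutathione peroxidase, was high in backfat and lymph and low in the muscles and brain. In backfat it stood at 2052, 951, 1069, 834 and 1575 TPM in ET, against 822, 1106, 829 and 898 TPM in L, with overlapping ranges (0.43, adjusted p = 0.372). In lymph it stood at 627, 427, 682 and 680.4 TPM in ET, against 696, 448, 789.5, 552 and 907 TPM in L (-0.15, adjusted p = 0.914). Lymph exceeded loin by 2.48 on the log2 scale (adjusted p = 8.34e-16), while backfat exceeded lymph by 0.75 (adjusted p = 0.000399). The backfat lead over lymph was 0.47 (adjusted p = 0.198) once all 50 libraries entered.

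In muscle GPX1 stood at 77.6, 71.5, 115, 65.1 and 88.7 TPM in ET loin, against 129, 186, 101 and 207 TPM in L loin, a log2 difference of -0.86. Of the ET libraries S0276 lay inside the L range. In tenderloin it spanned 61.9 to 97.4 TPM in ET and 73.1 to 136 TPM in L (-0.34, adjusted p = 0.377).

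GPX3, the secreted glutathione peroxidase, had the widest span of the 9 genes. It stood at 3300.4, 1119, 1202, 1320.1 and 406 TPM in ET backfat, against 3578, 974, 667 and 800.0 TPM in L backfat, where S0235 and S0349 were the high libraries and the ranges overlapped. In brain it stood at 1792, 1392, 2295 and 572 TPM in ET, against 2253, 1830.4, 383 and 1274 TPM in L, again overlapping. The tissue means of backfat and brain were not called different (backfat minus brain -0.10, SE 0.39, adjusted p = 0.814).

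In lymph GPX3 dropped to 9.53, 5.14, 4.41 and 2.75 TPM in ET, against 19.4, 7.50, 22.4, 4.64 and 38.6 TPM in L. The ranges overlapped, and the difference of -1.37 (SE 0.50) was not called (adjusted p = 0.881). GPX3 is known as a kidney product, and the left-out lymph library of S0235, with its uromodulin, held 26571 TPM. With that library in, the lymph difference was 1.05 in place of -1.37. The left-out brain libraries of S0235 and S0355 held 4.06 and 18.8 TPM. In muscle GPX3 spanned 104 to 253 TPM in ET loin and 93.3 to 225 TPM in L loin, and 90.6 to 251 TPM in ET tenderloin and 169.8 to 334 TPM in L tenderloin.

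SRXN1 varied widely between brain libraries and split the types in loin. In loin it stood at 3.64, 2.25, 1.93, 2.10 and 2.31 TPM in ET, against 14.9, 23.5, 9.37 and 23 TPM in L, a log2 difference of -2.38 given as a description, and the left-out loin library of S0355 held 11 TPM. All 5 ET loins were below all 4 L loins, as was the case in the same direction for 21.6% of all entries tested in loin. In tenderloin of the same animals it stood at 10.2, 4.58, 7.08, 3.74 and 4.25 TPM in ET, against 5.64, 9.89, 15.4, 9.27 and 20.3 TPM in L. These ranges overlapped, with S0235 the highest ET library and S0349 the lowest L library, and the difference of -0.87 (SE 0.32) was not called (adjusted p = 0.165).

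In brain SRXN1 stood at 65.9, 360.1, 57.5 and 169 TPM in ET, against 60.1, 45.1, 711 and 53.7 TPM in L. S0384 and S0276 were the high libraries, 1 of each type, and the type difference was 0.28 (SE 0.92, adjusted p = 0.938). Brain exceeded backfat, the next tissue, by 3.13 on the log2 scale (adjusted p = 1.57e-09). The left-out myelin-rich brain libraries of S0235 and S0355 held 11.7 and 10.8 TPM. In backfat it stood at 25.7, 3.42, 15, 12.6 and 7.37 TPM in ET, against 10.1, 16.3, 19.1 and 9.82 TPM in L (-0.29, adjusted p = 0.728), and in lymph it spanned 1.84 to 3.15 TPM in ET and 1.96 to 4.33 TPM in L.

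TRXR1 was higher in brain than in lymph, loin and tenderloin, and held no called type difference in backfat, tenderloin, brain or lymph. Its tissue means ran from 9.82 TPM in lymph to 24.2 TPM in brain. Of its 10 tissue contrasts 5 were called. The share of all entries called in these contrasts ran from 23.2% (loin minus tenderloin) to 87.8% (brain minus tenderloin). Brain exceeded lymph by 1.26 on the log2 scale (limma, adjusted p = 4.77e-05), loin by 1.06 (0.000339) and tenderloin by 0.75 (0.00659), and backfat exceeded lymph by 0.85 (0.00318) and loin by 0.66 (0.0204). With median-ratio scaling TRXR1 was lower in brain than in tenderloin (-0.66, limma, adjusted p = 0.0115). Under that scaling brain and loin were not called different (-0.30, adjusted p = 0.255). In the main fit no neighbours in the order brain, backfat, tenderloin, loin and lymph were called different. In loin it stood at 8.48, 8.39, 10.2, 8.28 and 6.01 TPM in ET, against 10.8, 19.9, 9.90 and 15.8 TPM in L (-0.67), with S0276 above the lowest L library. In tenderloin it stood at 22.5, 13, 10.2, 8.93 and 4.94 TPM in ET, against 12, 16.7, 22.4, 14.8 and 18.2 TPM in L (-0.58, adjusted p = 0.313), where S0235 was above every L library.

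NQO1 was highest in brain and backfat and lowest in lymph. It spanned 34.5 to 57.9 TPM in ET brain and 33.3 to 69.6 TPM in L brain, 19 to 74.4 TPM in ET backfat and 23.4 to 44.1 TPM in L backfat, and 2.09 to 3.94 TPM in ET lymph and 2.34 to 6.05 TPM in L lymph. Brain and backfat were not called different (adjusted p = 0.276). With median-ratio scaling NQO1 was not called higher in backfat than in loin (0.36, limma, adjusted p = 0.160). Nor was it called higher in brain than in loin (-0.12, 0.664) or in tenderloin (0.30, 0.245). In tenderloin it stood at 8.88, 17.2, 16.4, 15.5 and 15.3 TPM in ET, against 19, 8.64, 9.0, 7.61 and 9.89 TPM in L. The ranges overlapped there, with S0235 the low ET library and S0349 the high L library. The difference of 0.44 (SE 0.24) was not called (limma, adjusted p = 0.337). In loin NQO1 stood at 11.14, 31.1, 20.5, 19.7 and 22.5 TPM in ET, against 16.4, 8.78, 18.5 and 15.4 TPM in L (0.46), with overlapping ranges.

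HMOX1 was high in backfat and lymph, as GPX1 was. In backfat it stood at 90.1, 27, 98.7, 31.9 and 58.1 TPM in ET, against 29.4, 100.4, 35.9 and 25.8 TPM in L (0.39, adjusted p = 0.644). In lymph it stood at 40.1, 19.3, 24.7 and 18.8 TPM in ET, against 34, 26.2, 61.4, 34.9 and 60.2 TPM in L (-0.72, adjusted p = 0.881). Both pairs of ranges overlapped. HMOX1 is a known product of macrophages that clear red cells. The 8 macrophage markers summed to 712 to 1322 TPM in ET lymph and 788 to 1933 TPM in L lymph, against at most 109 TPM in any loin or tenderloin library. In brain they summed to 94.8 to 195 TPM in ET and 110 to 433 TPM in L. Mean HMOX1 was lowest in brain, at 8.24 TPM, beside 11.37 TPM in loin and 10.01 TPM in tenderloin. Brain was not called different from either muscle. With median-ratio scaling HMOX1 was called lower in brain than in loin (-1.60, limma, adjusted p = 5.98e-06) and than in tenderloin (-1.51, 1.055e-05). The part of macrophages in the HMOX1 levels was not tested. In loin HMOX1 stood at 5.47, 6.47, 8.25, 9.79 and 5.05 TPM in ET, against 10.7, 18.5, 9.39 and 28.7 TPM in L (-1.06), and only S0309 of the ET animals reached the L range.

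Read over the 9 genes, the loin values leaned to lower levels in ET animals. The median log2 difference of the 9 was -0.67 in loin, beside -0.23 over all entries, and 5 of the 9 (FSP1, SRXN1, GPX1, TRXR1 and HMOX1) were past the threshold, beside 31.4% of all entries and 25.2% that were lower. The values of FSP1 and SRXN1 guided the choice, so the counts describe the libraries only. In tenderloin the median was -0.34 beside 0.05, in backfat 0.39 beside 0.29, in brain -0.04 beside -0.19 and in lymph -0.15 beside -0.08. With all 50 libraries, 2 of the 9 were past the threshold in loin, and with median-ratio scaling 3 were.

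The rest of the redox, iron and selenium network was read from 6 gene lists, which held 105 genes without the 9 members and of which 97 were measured. The lists were chosen with earlier results of these data known. Their counts beside the shares of all entries are therefore a description. In backfat 13 of 91 tested genes were higher in ET and 0 were lower, beside 7.53% of all entries higher and 1.04% lower. The median difference was 0.52, beside 0.29 over all entries. With median-ratio scaling, 5 were higher and 2 lower, and the count of higher genes ran from 4 without S0326 or without S0384 to 19 without S0276.

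The backfat genes that rose came from each of the 6 lists. Of 15 tested glutathione genes 3 rose, the glutaredoxin GLRX1 (53.1 ± 9.07 TPM in ET and 19.98 ± 3.16 TPM in L, log2 fold change 1.36) and the microsomal glutathione transferases MGST2 (2.53) and MGST1 (2.61). Of 18 thioredoxin and peroxiredoxin genes 4 rose, among them the mitochondrial peroxiredoxin PRDX3 (398 ± 193 TPM in ET and 85.5 ± 13.98 TPM in L, 2.01), PRDX6 (1.74), which also reduces phospholipid peroxides, and the selenoenzyme MSRB1 (2.09). The NADPH-supplying malic enzyme MAOX rose by 4.69 and the pentose phosphate enzyme TKT by 2.31, 2 of 18 genes of the NRF2 list.

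Of 17 iron and ferroptosis genes 2 rose in backfat. They were VKORL, a vitamin K epoxide reductase (57 ± 24.3 TPM in ET and 11.7 ± 3.56 TPM in L, 2.13, adjusted p = 0.00706), and the transferrin receptor TFR1 (1.19). The paraoxonase PON2 (1.99) was the 1 of 6 peroxide enzymes that rose, and the deiodinase IOD2 (1.02) the 1 of 17 selenoprotein genes. VKORL, GLRX1 and MAOX were called in 17 of 17 alternatives, PRDX6 and PON2 in 15, PRDX3 in 14, MSRB1 and TKT in 11, MGST2 in 10 and MGST1 in 4 of 17. IOD2 was called in 6 of 16 and TFR1 in 3 of 16. The marker differences given above for backfat came from the same libraries, and their part in these genes was not tested.

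In tenderloin 1 of 89 list genes was called and it was lower, beside 1.63% of all entries. This was COQ8A, a kinase-like protein needed to make coenzyme Q, the substrate of FSP1, at 506 ± 140 TPM in ET and 1068 ± 282 TPM in L (SD, n = 5 each), a fall of 1.08 on the log2 scale (SE 0.23, adjusted p = 0.0387). It was called in 9 of 17 alternatives, and the adjusted p rose to 0.107 without S0326. COQ8A was also lower in loin (212 ± 103 TPM in ET and 454 ± 144 TPM in L, -1.15, adjusted p = 0.0163), in 15 of 17 alternatives.

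In loin 6 of 88 list genes were higher and 20 lower in ET, beside 6.16% and 25.2% of all entries. With median-ratio scaling 10 were higher and 11 lower. Of 18 genes of the NRF2 list 7 were lower, among them the autophagy receptor SQSTM (406 ± 77.9 TPM in ET and 1367 ± 234 TPM in L, -1.75), the NRF2 inhibitor KEAP1 (-0.83) and the NRF2 partner MAFG (-1.25). Of the selenoprotein list 5 of 16 were lower, including TSAP1 (-1.70), SEBP2 (-1.02) and SPS2 (-0.65), which serve selenocysteine incorporation. The sestrin SESN1 (-1.83), the thioredoxin inhibitor TXNIP (-0.99) and the lipid-peroxidation-promoting acyl-CoA synthetase ACSL4 (-1.50) were lower as well. These 9 genes were each called in 14 to 17 of 17 alternatives.

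Among the 6 loin genes higher in ET were MGST2, GLRX1, MGST1 and PRDX6. Each was also called higher in backfat of the same animals, as were 7.53% of all entries tested there. The share of all entries called higher in both tissues was not counted. MGST2 was at 41.3 ± 9.95 TPM in ET and 9.57 ± 4.91 TPM in L (2.09), GLRX1 differed by 1.18, MGST1 by 1.15 and PRDX6 by 1.04. The MGST1 difference was -0.17 (adjusted p = 0.945) with all 50 libraries and was not called without S0377 (adjusted p = 0.0537). ACSL3 (1.04) and MBOA5 (0.49), which remodel membrane phospholipids, completed the 6. The marker differences given above for loin came from the same libraries, and their part in these genes was not tested. None of 89 list genes in lymph and none of 94 in brain was called by limma, where 0% of all entries were.

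**Figure D3:**
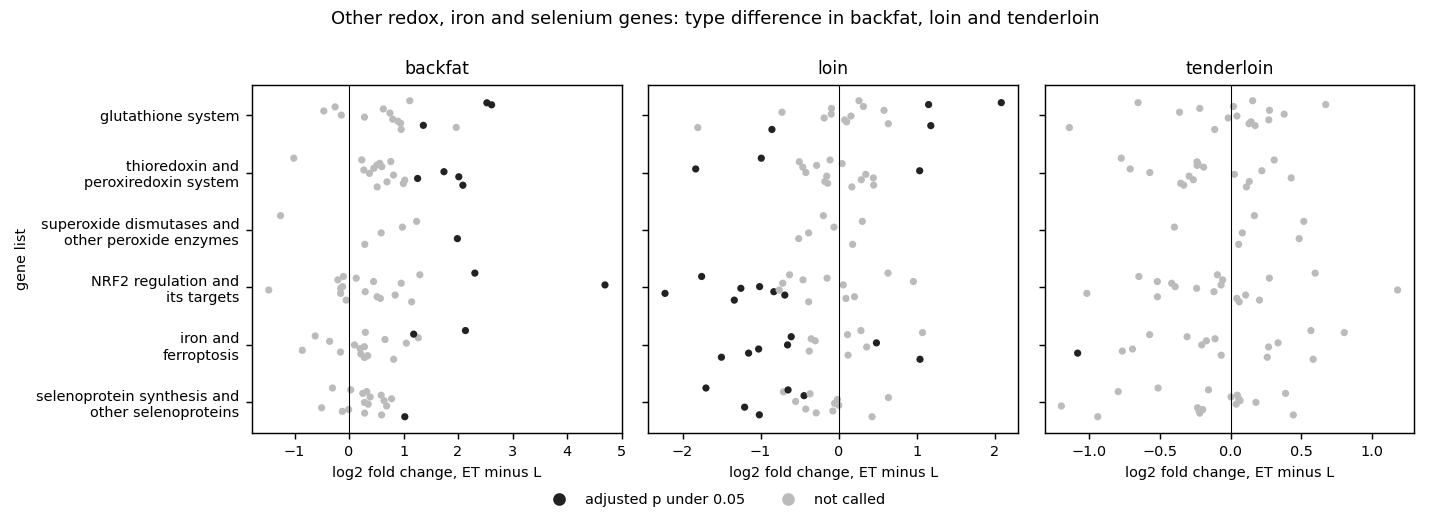
Log2 fold change of ET over L for the genes of the 6 lists in backfat, loin and tenderloin, with genes at an adjusted p under 0.05 in black. Black points lie only right of 0 in backfat, on both sides in loin, and at 1 gene, COQ8A, in tenderloin; with median-ratio scaling backfat had 5 higher and 2 lower genes.

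The shares of the transcripts behind a sum differed between animals for FSP1, SRXN1 and catalase. FSP1 was the sum of 3 assembled transcripts, which matched bovine FSP1 at 88.7% to 93.0% identity. The second of them made up 0% to 3.50% of FSP1 in the 5 tissues of S0235 and 8.37% to 64.2% in the libraries of the other 9 animals. SRXN1 was the sum of 4 transcripts, of which the first was 0 TPM in all 5 libraries of S0235 and the second 0% to 0.00643% in the 5 libraries each of S0384 and S0385. In the ET animal S0326 the second was 0% in the 4 libraries other than lymph and 22% in lymph, at 0.432 TPM. It made up 71.2% to 89.1% in S0235.

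The second transcript of catalase made up 0% to 0.130% in the 5 libraries of S0242, 16.4% to 21.4% in S0349, 15.3% to 23.1% in S0377, and 4.06% to 10.4% in the other 7 animals. These shares include the libraries left out for their tissue markers. The transcripts of an entry differ in length (1311 to 2558 bases for the 3 of FSP1), and TPM is per length, so the sums also depend on how reads were divided between them. How much this moved the sums was not tested. With the fits on 1 transcript per entry neither FSP1 call held.

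**Figure D4:**
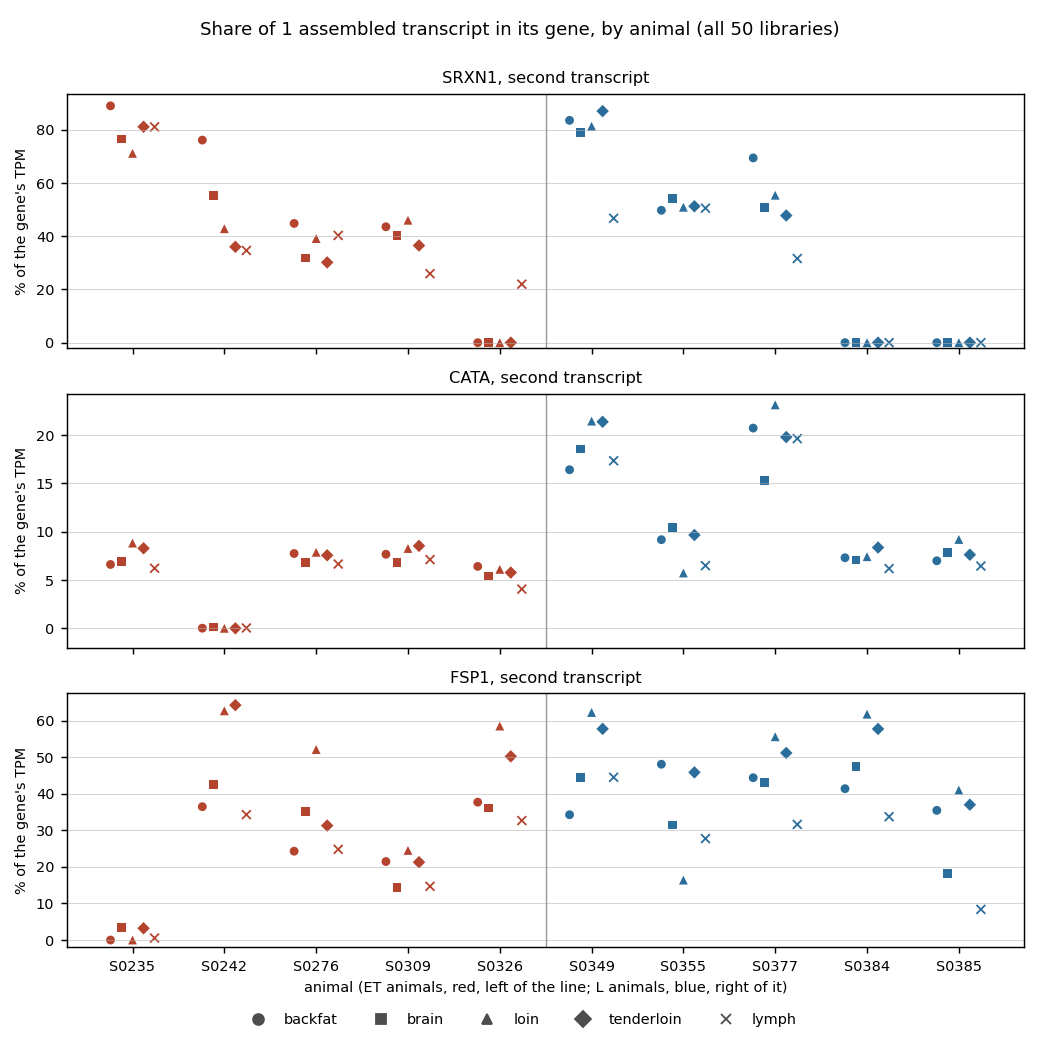
Share of the second assembled transcript in its gene's TPM for SRXN1, CATA and FSP1, in percent, for the 5 tissues of each animal, ET animals left of the line. The 5 points of one animal lie together for CATA, with S0242 at 0% to 0.130%, and SRXN1 is at or near 0% in every library of S0384 and S0385 and in all but the lymph library of S0326.

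The genes whose levels ran most like each member over the 45 kept libraries were found by Pearson's r of log2(TPM + 1), which is a description because all points share the 5 tissues. FSP1 was most like UBL7 (r = 0.911), the prostaglandin reductase PTGR1 (0.877) and the alcohol dehydrogenase ADH1E (0.860). GPX4 was most like PLCA (0.938), and CATA most like S10AD (0.896). HMOX1 was most like GPX1 (0.904), another of the 9, then LATS2 (0.879) and CD5L (0.867), a known macrophage product.

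GPX1 was most like RIN3 (0.925), GPX3 most like LRP3 (0.924), and SRXN1 most like SE6L1 (0.887) and WLS (0.887). TRXR1 was most like DC1I2 (0.835) and NQO1 most like RHG21 (0.895). Among the 9, FSP1 and GPX4 ran together at r = 0.765 and FSP1 and CATA at 0.727, and GPX3 and NQO1 at 0.864. GPX1 and TRXR1 stood at 0.01.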

How the data were processed

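RNA-seq of 50 libraries, 10 groups of 5 animals, was deposited by the authors as 1 table of TPM per assembled transcript, with a table of BLASTX hits (text, not a measurement). Total RNA was extracted with TRIzol and libraries were made with a TruSeq stranded mRNA kit, per the labels' protocols. Trimmomatic 0.36, Salmon 1.10.0 and the build Sscrofa11.1 are named, without their roles, in the submitters' processing notes. The assembler and its settings are not given in the sources used here. TPM holds no depth, so no counting interval is given and no count test was run.

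Of 57085 transcripts, 20601 had no hit, 1864 had an E value above 1e-10, 2422 hit repeats or retroviruses and 23 hit proteins outside animals. The 32175 left were summed into 14424 entries by best hit, at a median identity of 92.9%. Best hits can merge paralogs, and most come from other species. The 5 libraries whose tissue markers went against their labels were left out, a choice known from earlier results. The members and lists were chosen with earlier results of these data known. Genes were named as members, as up to 3 called genes per list and direction by smallest p, and as the 3 entries with the highest r per member among entries at a mean of at least 5 TPM.

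Types were compared in each tissue with limma 3.58.1 (R 4.3.3, trend, two-sided) on log2(TPM + 1) of entries at a mean of at least 1 TPM, with Benjamini-Hochberg adjustment over all entries and calls under 0.05. A pseudocount of 1 understates the change of low genes. Type by tissue interaction used backfat, lymph, tenderloin and brain, and tissue contrasts came from 1 fit of 10 group means averaged over types. The tests were tested on simulated data. Animals differ between types, so the p-value of a type difference within 1 tissue measures the spread between animals. The tissue contrasts and the interaction use the same animals in several tissues without a term for the animal. Their p-values therefore mix the spread within and between animals. The same animal number marks the same animal in each tissue, per the labels, and same-animal deviations from group means had a median r of 0.15 (84 pairs), against -0.05 between animals (320 pairs), and 0.45 for loin and tenderloin (9 pairs). Alternatives were all 50 libraries, a pseudocount of 0.1, no filter, a mean of at least 5 TPM, median-ratio scaling, 1 transcript per entry, E values of at most 1e-50, leaving out each animal, and the animal as a replicate block. Tables were handled with Python 3.11.15 and pandas 2.3.3.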

Additional observations from a re-analysis of the deposited data

Results flagged for a closer look

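Within the groups of 4 or 5 kept libraries, 12 of 90 had a library far from the others of its group by Dixon's criterion, which chance gives in about 1 group in 20. No explanation was weighed for them.

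For FSP1, the ET loin of S0242 held 16.8 TPM, with 8.93 to 10.8 TPM in the other ET loins, and the L backfat of S0377 held 68.4 TPM, with 42.1 to 42.5 TPM in the others. For SRXN1, the ET loin of S0235 held 3.64 TPM, with 1.93 to 2.31 TPM in the others, and the L brain of S0384 held 711 TPM, with 45.1 to 60.1 TPM in the others. The same brain library of S0384 stood apart for CATA, at 333 TPM with 130.4 to 155 TPM in the others, and for NQO1, at 69.6 TPM with 33.3 to 35.5 TPM in the others.

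In L backfat, GPX3 was at 3578 TPM in S0349, with 667 to 974 TPM in the others. HMOX1 was at 100.4 TPM in S0377, with 25.8 to 35.9 TPM in the others, and CATA was at 727 TPM in S0385, with 383 to 434 TPM in the others. In L lymph, GPX4 was at 411 TPM in S0385, with 306 to 325 TPM in the others. NQO1 in tenderloin stood apart in both types, lowest in the ET animal S0235 at 8.88 TPM with 15.3 to 17.2 TPM in the others, and highest in the L animal S0349 at 19.0 TPM with 7.61 to 9.89 TPM in the others.

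The type difference differed between backfat, tenderloin, brain and lymph for FSP1 (limma F test, adjusted p = 0.000426) and for GPX4 (adjusted p = 0.0212). In data outside the comparisons, the left-out lymph library of S0235 held 26571 TPM of GPX3, with 2.75 to 38.6 TPM in the 9 kept lymph libraries, beside 2156 TPM of uromodulin.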

How the results depend on the processing

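The FSP1 interaction and its backfat lead held in all 18 alternatives, while the separate calls in backfat and tenderloin did not. Of 9 genes, 1 was called in backfat, 1 in tenderloin, 2 in the interaction, 1 between loin and tenderloin, and 5 were past the threshold in loin. With all 50 libraries, 2 were past it in loin. Without a filter, backfat and tenderloin had 0, and with a mean of at least 5 TPM or an E value of at most 1e-50 tenderloin had 0. With median-ratio scaling, backfat and tenderloin had 0, loin 3 and the interaction 1. With 1 transcript per entry, backfat, tenderloin and loin minus tenderloin had 0. Leaving out 1 animal gave 0 to 3 in backfat, 0 to 1 in tenderloin, 2 to 6 in loin and 1 to 3 in the interaction. The causes were not tested.

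Of 762 alternative values of a member's type difference 42 lost a call, 3 gained one and 0 changed direction with a call. Of 1620 tissue contrasts 10 reversed. Median-ratio scaling gave GPX4 -0.66, TRXR1 -0.30 and NQO1 -0.12 for brain minus loin, FSP1 -1.16, GPX1 -1.09, GPX4 -0.73 and TRXR1 -0.66 for brain minus tenderloin, GPX4 0.67 for loin minus lymph and GPX4 0.74 for tenderloin minus lymph. With 1 transcript per entry FSP1 was -0.11 for tenderloin minus lymph. The scaling also moved the median of all entries from 0.29 to 0.01 in backfat and from -0.23 to -0.03 in loin, and the calls over all entries to 495 higher and 257 lower in backfat (912 and 126 as deposited), 73 and 32 in tenderloin (152 and 25), and 1117 and 1454 in loin (652 and 2668).

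With the animal as a replicate block, 2 genes were called in the interaction, 1 between loin and tenderloin and 6 as highest in 1 tissue, where 5 were without it. TRXR1 gained a call for brain over backfat (adjusted p = 0.0373) and for tenderloin over lymph (0.0351), and GPX1 for backfat against tenderloin in the type difference (0.0431). The unknown depth, 4 or 5 animals a group and names by protein match limit these values.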
